A study of Homo sapiens with 3 samples.

Results

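The cells described here are the day 21 (D21) cardiomyocytes (CMs) of chambered cardiac organoids in which mitochondrial transcripts took 10% to below 20% of the UMIs. A UMI is a unique molecular identifier, the tag that counts each captured RNA molecule once. A barcode of the D21 library was a member when it had more than 2000 and fewer than 7500 detected genes, at least 2% of its UMIs from TNNT2, MYH6, MYL7 and TTN together, below 0.2% from AFP and below 8 UMIs per 10000 from the proliferation genes MKI67, TOP2A, CENPF, TPX2, NUSAP1 and UBE2C. The rule gave 1334 MT-rich CMs among the 9149 barcodes of D21 and the 17327 barcodes of the whole table. They were set against the 510 D21 CMs that passed the same limits with a mitochondrial share below 10%. Members were thus chosen by the mitochondrial share, the 4 muscle genes, AFP, the proliferation genes and the number of genes detected, and the values of these are given as a description.

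The organoids came from H7, a line of human embryonic stem cells differentiated to the cardiac lineage, seeded in Matrigel and grown in cardiosphere growth medium until D14, then in RPMI with B27 in a spinner flask. Organoids were dissociated with TrypLE and sequenced as 1 Chromium 3' library a day, at D8, D14 and D21, with no perturbation at any day. The number of organoids behind a library was not given in the sources used here. With 1 library a day there was no replicate to test against, and day and library cannot be told apart.

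Mitochondrial DNA codes for a small set of respiratory chain subunits and for the RNAs of the mitochondrial ribosome, while all other subunits of the chain are made from nuclear genes and imported. Heart muscle is among the tissues richest in mitochondria, and its maturation is known for a turn from glycolysis to oxidative phosphorylation, with growing stores and cycling of calcium. A high share of mitochondrial transcripts is also widely used to discard barcodes, because a cell that has lost cytoplasmic RNA keeps RNA inside its mitochondria.

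MT-rich CMs were common at D21. They made up 34.0% of the 3928 D21 barcodes in the gene range (exact 95% interval, 32.5% to 35.5%, which like all intervals here covers counting error only). Of the 1656 barcodes in that range with 10% to below 20% mitochondrial UMIs, 80.6% were members (78.6% to 82.4%), whereas the comparison CMs were 26.2% of the 1946 barcodes below 10%. Among all gated CMs below 20%, members were 72.3% (70.2% to 74.4%). The same rule gave 110 cells against 424 below 10% at D14 (20.6%, 17.2% to 24.3%) and 2 against 44 at D8. The median mitochondrial share of barcodes in the gene range was 10.1% at D21, 3.32% at D14 and 2.10% at D8. Among D21 non-myocytes, with the 4 muscle genes below 1% of UMIs, 174 were at 10% to below 20% and 1200 below 10%. These were unlike by AFP: 108 and 200 cells had AFP at or above 0.5% of UMIs, and 66 and 1000 had less.

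**Figure D1:**
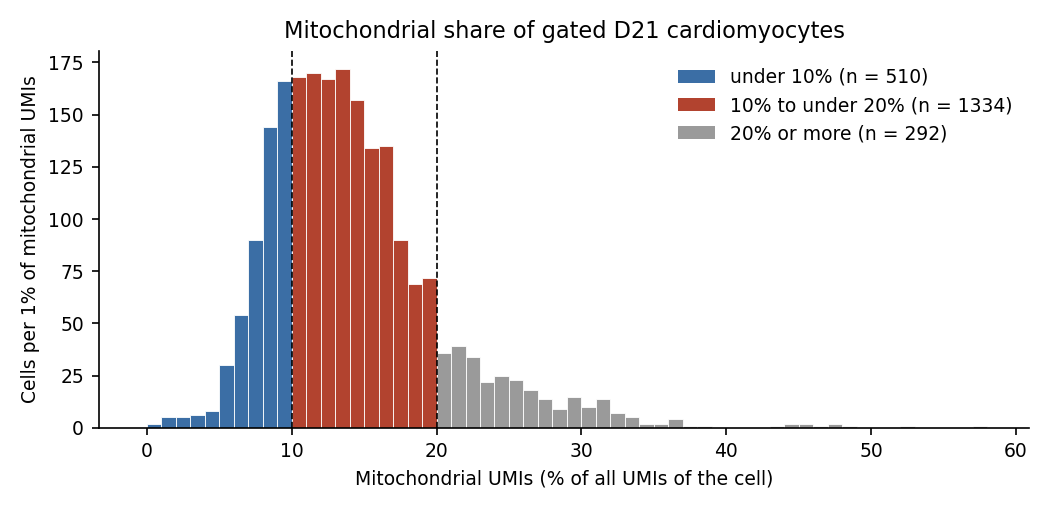
Number of gated D21 CMs (y axis) per 1% step of the mitochondrial share of UMIs (x axis, %), coloured by the 3 ranges, with dashed lines at the limits of 10% and 20%. The counts ran on without a gap across the lower limit (166 cells at 9% to below 10% and 168 at 10% to below 11%) and fell across the upper limit (72 cells and then 36).

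Cells just inside and just outside the limits are given as a description. The 166 CMs just below 10% had a median 4.89% of UMIs from the 4 muscle genes and the 168 just above it 4.81%. The 72 CMs just below 20% had 4.63%, and the 36 just above it 4.55%. At the muscle gate, 25 barcodes had 1.5% to below 2% and 34 had 2% to below 2.5%. The members are thus defined as a range of a per-cell share.

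The label of CMs held in the muscle genes that the gate did not use. All 10 of the fixed CM markers outside the gate (ACTC1, ACTN2, MYL3, MYL4, TNNC1, TNNI1, PLN, HSPB7, MYBPC3 and NKX2-5) reached at least 100 UMIs per 1000000 non-mitochondrial UMIs (CPM) in the members. All levels below are on this scale unless stated, so that the mitochondrial UMIs themselves do not dilute the other genes. Their summed level was 55928 CPM in members and 58933 CPM in comparison CMs. Endothelial markers summed to 40.6 and 49.5 CPM, with CDH5 at 0.585 CPM in members and 0 in the comparison. Epicardial markers summed to 69.4 and 82.5 CPM, with MSLN at 0 in both pools. Markers of dividing cells outside the gate summed to 136 and 158 CPM.

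Barcodes of both pools held RNA of other cell types. Hepatic endoderm markers, abundant in the AFP-producing cells of the same organoids, summed to 1309 CPM in members and 1622 CPM in comparison CMs. They were in nearly every barcode, with APOA1 in 1290 of 1334 members and 500 of 510 comparison CMs. Fibroblast markers (COL1A1, COL1A2, COL3A1, DCN, LUM, POSTN, PDGFRA, TCF21, THY1 and FBLN1) summed to 345.6 and 567.3 CPM, and were lower in members for 9 of 10 genes. The median cell did not differ in this way: 0.0117% of non-mitochondrial UMIs came from fibroblast markers in members and 0.0112% in the comparison. The 90th percentile was 0.0496% in members and 0.0978% in the comparison, so that a tail of barcodes in the comparison pool carried the excess. Smooth muscle markers (MYH11, TAGLN, CNN1, ACTG2 and RGS5) summed to 571 and 762 CPM, with all 5 lower in members. The highest 5% of doublet scores took in 69 members (5.17%) and 51 comparison CMs (10%). The doublet caller itself marked only 2 of 3928 barcodes and is not used to remove cells. D21 shared 52 barcodes with D8 and 59 with D14, among them 15 members and 4 comparison CMs.

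The mitochondrial share that chose the members is a ratio, and both of its terms are given here as a description. Mitochondrial UMIs had a median of 1752 per cell in members (10th to 90th percentile, 1121 to 2898) and 1086 in comparison CMs (650 to 1837), a ratio of medians of 1.61. Non-mitochondrial UMIs had a median of 10837 in members (7052 to 16690) and 12212 in the comparison (8289 to 20458), a ratio of 0.887. The ranges overlapped widely in the second measure, with 65.7% of comparison CMs at or above the members' median, and far less in the first, with 11.2%. Total UMIs ran from 4469 to 41787 in members, with a median of 12593, and from 5029 to 44022 in the comparison, with a median of 13236.

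**Figure D2:**
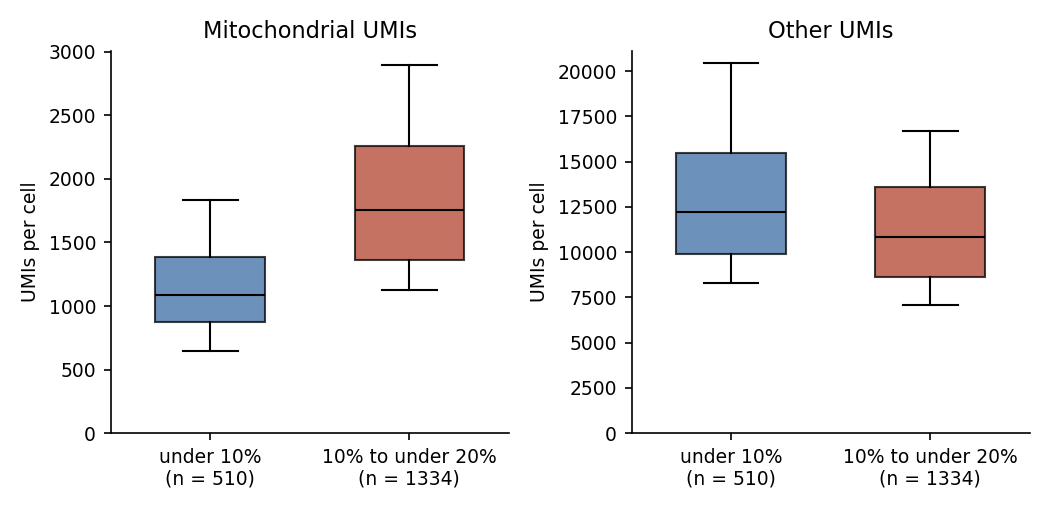
UMIs per cell from the 13 mitochondrial genes (left) and from all other genes (right) in D21 CMs below 10% and at 10% to below 20% mitochondrial share. Boxes span the quartiles with the median as a line, and whiskers the 10th to 90th percentile. The medians were 1086 and 1752 on the left and 12212 and 10837 on the right.

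At matched depth the limits on the mitochondrial share fix which pool holds more mitochondrial UMIs, so the values show only by how much. In CMs with 5000 to below 10000 non-mitochondrial UMIs, the 524 members had a median of 1345.5 mitochondrial UMIs and the 132 comparison CMs 793.5, a ratio of 1.70. Between 10000 and 15000 the medians were 1925 and 1104, a ratio of 1.74. Between 15000 and 20000 they were 2739 and 1612, a ratio of 1.70. The number of genes among the other RNA was close, since cells thinned to 3000 non-mitochondrial UMIs held a median of 1426 genes in members and 1390.5 in the comparison. The contrast between these ranges of mitochondrial share gave a ratio of mitochondrial UMIs of 2.12 and of other UMIs of 0.926 at D14. In those D21 non-myocytes with AFP at or above 0.5% of UMIs, called AFP-high here (108 cells at 10% to below 20% and 200 below 10%), these ratios were 1.34 and 0.880.

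Both terms are also given over the whole run of mitochondrial shares, where the ranges themselves set them apart. The median number of mitochondrial UMIs was 1114 in CMs at 5% to below 10%, 1444.5, 1731 and 2060 in 3 successive ranges of the members (the lower and the upper part of 10% to below 15%, in equal widths, and 15% to below 20%), 2606 at 20% to below 30% and 3494 at 30% or more. Non-mitochondrial UMIs had medians of 12326.5, 11485.5, 10890.5, 10242.5, 8160 and 6457 in the same ranges.

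The make-up of the mitochondrial RNA, which the rule did not use, was nearly the same in both pools. MT-CO1, the catalytic subunit of cytochrome c oxidase, took 25.2% of mitochondrial UMIs in members and 25.1% in the comparison. MT-CO3 took 15.0% and 14.7%, and MT-CO2 14.9% and 15.3%. MT-ND4, a proton-pumping subunit of complex I, took 10.5% and 10.6%. MT-ATP6, the proton channel subunit of ATP synthase, took 7.65% and 7.33%, a log2 ratio of 0.06, and MT-ND1 4.96% and 5.17%, a log2 ratio of -0.06. Apart from MT-ND6 and MT-ATP8, every one of the 13 genes lay within these bounds.

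MT-ND6 differed from the others. This complex I subunit took 0.159% of mitochondrial UMIs in members and 0.223% in the comparison, a log2 ratio of -0.49 (-0.58 to -0.40) from 4013 and 1334 UMIs. Per cell, members held 1.15 times as many MT-ND6 UMIs as the comparison, while each of the other 12 genes stood at 1.37 to 1.69 times. MT-ND6 was the 1 protein gene of the 13 annotated on the minus strand of the mitochondrial genome, with 12 on the plus strand. Its share was also lower in the MT-rich range at D14, at a log2 ratio of -0.71 (-0.88 to -0.56), and in AFP-high non-myocytes, at -0.34 (-0.52 to -0.17). MT-ATP8, the least abundant of the 13 with 0.0115% and 0.0136%, had a log2 ratio of -0.25 with an interval that held 0 (-0.59 to 0.14).

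Among the 4 gate genes, MYH6, the atrial and fetal myosin heavy chain, stood at 12585 CPM in members and 9727 CPM in the comparison (log2 ratio 0.37). TTN, the giant spring protein of the sarcomere, stood at 8933 and 7302 CPM (0.29). MYL7, the atrial regulatory light chain, had 26859 and 25638 CPM (0.07), and TNNT2, cardiac troponin T, 8921 and 9495 CPM (-0.09). The gate kept only cells with many of these UMIs, so their levels describe the gate and are not a finding. In AFP-high non-myocytes, which should lack them, MYH6 had 422 CPM at 10% to below 20% and 294 CPM below 10%, and TTN 327 and 177 CPM, low levels that were also the higher in the MT-rich range.

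Most other genes differed little between the pools. Of 1508 genes at 100 CPM or more in either pool, 6 were higher in members by 1.5-fold or more (0.398% of the genes) and 14 were lower (0.928%). At a smaller difference, of 0.32 or more on the log2 scale, 94 genes were higher (6.23%) and 76 lower (5.04%), and the median log2 ratio was -0.03. Over all 1508 genes, 667 lay above 0 and 841 below 0. For each gene list below, the number of genes above or below 0 is to be read beside these, and the genes that passed 0.32 are named as such. The folds describe these pools of cells from 1 library and carry no test of the condition.

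The gene with the largest excess in members was MTRNR2L8, a nuclear gene on chromosome 11 that is a copy of the mitochondrial 16S ribosomal RNA. It stood at 102.5 CPM in members and 42.5 CPM in the comparison, a log2 ratio of 1.27 (1.09 to 1.46). The GENCODE transcript of MTRNR2L8, 1 exon of 1303 bases at chr11:10507887-10509189 on the minus strand (GRCh38), was 93.2% identical to MT-RNR2 over 1301 aligned bases. The stretch that codes for its humanin-like peptide is shown beside the matching stretch of MT-RNR2, at chrM:2633-2704 on the plus strand, because over its 72 bases they differed at a single position, in capitals.
MTRNR2L8, chr11:10508155-10508226: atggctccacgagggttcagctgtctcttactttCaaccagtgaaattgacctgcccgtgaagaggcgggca
MT-RNR2, chrM:2633-2704: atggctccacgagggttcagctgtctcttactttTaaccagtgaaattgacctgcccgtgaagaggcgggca
MT-RNR2 is not among the 13 mitochondrial genes of the table, and reads of such near-identical copies can be assigned to either, so the source of the MTRNR2L8 UMIs is uncertain. The related copies MTRNR2L12 (95.3% identical to MT-RNR2 over 1047 bases) and MTRNR2L1 (89.5%) were also the higher in members, at 43.1 and 27.0 CPM for the former and 13.5 and 7.62 CPM for the latter. Across cells the level of MTRNR2L8 followed the mitochondrial share step by step, from 43.5 CPM at 5% to below 10% to 62.9, 103 and 141 CPM in the 3 ranges of the members and 260 and 572 CPM above them.

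The genes with the next largest excess were a mixed set, of which heart and muscle genes are given first. COX6A2 is the heart and muscle form of a subunit of cytochrome c oxidase. Its median was 3.59 UMIs per 10000 non-mitochondrial UMIs in members (lowest to highest cell, 0 to 64.8) and 1.95 in the comparison (0 to 30.9). In the pools it stood at 491 and 317 CPM, a log2 ratio of 0.63 (0.56 to 0.70). After thinning all cells to 3000 non-mitochondrial UMIs, 61.5% of members (58.8% to 64.1%) and 46.3% of comparison CMs (41.9% to 50.7%) held at least 1 COX6A2 UMI, against 4.5% of AFP-high non-myocytes. Unthinned, these shares were 85.2% and 75.7% in the CMs, whose median depths were 10837 and 12212 non-mitochondrial UMIs, with 19445 in the AFP-high cells. The members thus held more COX6A2 in both measures, with a wide overlap of single cells.

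ATP2A2 (SERCA2) is the pump that returns calcium to the sarcoplasmic reticulum. Its median was 11.9 UMIs per 10000 in members (lowest to highest cell, 0 to 62.9) and 7.92 in the comparison (0 to 26.9). Its pooled level was 1302 and 874 CPM, a log2 ratio of 0.58 (0.53 to 0.62). The cells overlapped, with the members' 10th percentile at 5.85 and the 90th percentile of the comparison at 16.1. In AFP-high non-myocytes ATP2A2 stood at 135 and 101 CPM.

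MYBPC3 is the cardiac myosin-binding protein C of the thick filament. Its median was 7.35 UMIs per 10000 in members (lowest to highest cell, 0 to 23.4) and 4.85 in the comparison (0 to 31.3). Its pooled level was 776 and 525 CPM, a log2 ratio of 0.56 (0.51 to 0.62). After thinning, 88.3% of members and 77.5% of comparison CMs held a MYBPC3 UMI, against 8.4% of AFP-high non-myocytes. LAMB2, a laminin chain of the basement membrane that surrounds muscle fibres, stood at 213 and 140 CPM (0.60). Also among the 10 largest were BAI2 (0.56), MAN1C1 (0.56) and the unnamed transcripts RP1-46F2.2 (0.63) and RP11-480G7.1 (0.60). LAMB2 and these unnamed transcripts ranked above ATP2A2 and MYBPC3, which at 1.49-fold and 1.48-fold fell short of 1.5-fold.

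The 10 genes with the largest deficit in members were for the most part stromal and cytoskeletal. LGALS1, galectin-1, stood at 89.4 CPM in members and 194 CPM in the comparison, a log2 ratio of -1.12 (-1.23 to -1.01). VIM, the intermediate filament of mesenchymal cells, had 223 and 420 CPM (-0.91), and TAGLN, a smooth muscle actin-binding protein, 140 and 251 CPM (-0.84). TIMP1 (-0.96), DLK1 (-0.91), COL1A1 (-0.83), MGP (-0.80), C7 (-0.76), COL3A1 (-0.72) and TMSB4X (-0.71) made up the rest. Fibroblast markers were lower in the members, as given above, and several of these genes moved with them.

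The values of these 10 genes are also given without barcodes rich in fibroblast RNA. With fibroblast markers below 0.05% of non-mitochondrial UMIs in both pools, a limit chosen after the data were seen, 1203 members and 434 comparison CMs remained. LGALS1 then had a log2 ratio of -0.53, VIM -0.55, TAGLN -0.97 and TIMP1 -0.32. C7 had -0.18, DLK1 -0.095, TMSB4X -0.042 and MGP 0.14. COL1A1 at 0.10 and COL3A1 at 0.31 are among the markers that set this limit, so their values follow from it. Of the genes with an excess, COX6A2 was then at 0.59, ATP2A2 at 0.51 and MYBPC3 at 0.51. Without the highest 5% of doublet scores, COL1A1 was at 0.56, COL3A1 at 0.43, TMSB4X at 0.50, DLK1 at 0.27, C7 at 0.31 and MGP at 0.20. For TMSB4X, which binds monomeric actin, the medians per 10000 UMIs were 2.65 in members and 2.71 in the comparison, and the 90th percentiles 7.53 and 20.4, which again placed the pooled difference in a minority of cells.

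Nuclear genes of the respiratory chain were described by complex. Complex IV, cytochrome c oxidase, was the one with the largest difference, with 11 of 12 measured genes higher in members, a median log2 ratio of 0.27 and a summed level of 21072 and 17570 CPM (0.26). COX6A2 and COX7C (3161 and 2488 CPM, 0.35) passed 0.32, COX7B and COX5B were each at 0.31, and COX5A lay at 0.00. Complex III had 6 of 8 genes higher (median 0.11), among them UQCRQ and UQCR10, each at 0.26. Complex V, ATP synthase, had 10 of 16 higher (median 0.12), from ATP5I at 0.39 (977 and 746 CPM) to ATP5C1 at -0.17.

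Complex I, the largest of the chain, had 22 of 35 genes above 0 with a median of 0.02. NDUFB1 (564 and 437 CPM, 0.37) and NDUFA3 (401 and 320 CPM, 0.33), both small accessory subunits, passed 0.32. The 3 measured genes of complex II, which is made from nuclear genes alone, had a median of -0.19. The summed levels were higher in members for complexes I, III, IV and V, by 0.09, 0.16, 0.26 and 0.13 on the log2 scale, and that of complex II differed by -0.09. A limit added after the data were seen kept cells with gate genes at 4% to below 6% of non-mitochondrial UMIs. Complexes I, III, IV and V were then at 0.015, 0.11, 0.20 and 0.067. Against the median of all genes of -0.03, complex IV stood furthest off, and the difference did not extend evenly to every complex.

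Other mitochondrial gene groups had medians near or below that of all genes. The TCA cycle had 3 of 9 genes higher (median -0.13), fatty acid oxidation 3 of 7 (-0.01), and the creatine and ATP shuttle 1 of 6 (-0.05). Nuclear genes of the mitochondrial ribosome had 5 of 13 higher (-0.04). The mitochondrial stress response had 1 of 4 higher (-0.04), the upkeep of mitochondrial DNA and RNA 1 of 2, and mitophagy and dynamics 2 of 3 (median 0.00). None of the genes of these lists at 100 CPM differed by 0.32 or more either way. MFN2, which fuses mitochondria, lay below the level filter at 80.4 and 49.0 CPM (0.71), as did PINK1, a sensor of damaged mitochondria, at 94.7 and 69.5 CPM (0.44). Both are picked genes, and other genes below the filter are not given here. The summed level of the whole mitophagy and dynamics list had a log2 ratio of only 0.04.

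Of the glycolysis genes, 2 were lower in members by 0.32 or more and none was higher by that much. Of 15 measured, 10 lay below 0, with a median of -0.12 and a summed level of 11733 and 13078 CPM (-0.16). ENO1, enolase, stood at 279 and 393 CPM (-0.49) and LDHA, the lactate dehydrogenase subunit that favours lactate, at 328 and 421 CPM (-0.36), and both passed 0.32. ALDOA was at -0.29 and GAPDH at -0.18 (4770 and 5398 CPM). HK1, the general hexokinase, went the other way at 0.26. The hypoxia response had a single gene at 100 CPM and a summed log2 ratio of -0.05.

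Calcium handling, the cycle of release and reuptake that drives contraction, had 7 of 9 measured genes higher in members, with a median of 0.33. Of these, 5 passed 0.32, namely ATP2A2, JPH2 (128 and 92.2 CPM, 0.47), RYR2 (260 and 199 CPM, 0.38), HRC (195 and 152 CPM, 0.36) and CAMK2D (171 and 135 CPM, 0.33). JPH2 holds the plasma membrane to the reticulum, RYR2 is the release channel, HRC binds calcium in the reticulum and CAMK2D is the kinase that tunes them. PLN, the inhibitor of the ATP2A2 pump, differed less (3360 and 3095 CPM, 0.12). TRDN, which helps hold the release channel to the calcium store, was at -0.14. At 3000 UMIs a cell, 52.1% of members and 45.3% of comparison CMs held a RYR2 UMI, against 1.3% of AFP-high non-myocytes.

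The Z-disc and titin partners, which anchor the thin filaments, had 10 of 13 genes higher (median 0.24), and 5 passed 0.32. Among these were SYNPO2L (193 and 147 CPM, 0.39), XIRP1 (269 and 207 CPM, 0.38), FLNC (319 and 247 CPM, 0.37) and LDB3 (1031 and 798 CPM, 0.37). ACTN2, the alpha-actinin of the Z-disc, had a median of 9.16 UMIs per 10000 in members and 7.58 in the comparison (pooled log2 ratio 0.24). ANKRD1, a stretch-responsive partner of titin, was at -0.18. All 5 measured genes of the intercalated disc, the junction between CMs, were higher without reaching 0.32, with PKP2 at 0.28, DSP at 0.27, VCL at 0.23, CDH2 at 0.17 and TJP1 at 0.16. All 4 measured ion channel and transporter genes were higher, and KCNH2, the rapid delayed rectifier, passed 0.32 (139 and 104 CPM, 0.42).

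The filaments themselves did not follow this pattern. In the thick filament list, MYBPC3 and MYOM1 (471 and 364 CPM, 0.37) were higher, whereas MYH7 (665 and 677 CPM, -0.02), MYL3 (-0.01) and MYL4 (-0.07) hardly differed. In the thin filament list, 6 of 8 genes lay below 0 with a summed log2 ratio of -0.19. ACTC1, cardiac alpha-actin, had a median of 112 UMIs per 10000 in members and 143 in the comparison, with pooled levels of 12997 and 15655 CPM (-0.27). ACTA2, the smooth muscle actin that immature CMs also express, was at 789.5 and 1287 CPM (-0.71). TPM1 was at -0.24 and TNNI1, the fetal troponin I, at 8480 and 8585 CPM (-0.02).

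A pair of sarcomere genes below the 100 CPM level, chosen after their values were seen, is given as a description. TNNI3, the adult cardiac troponin I, stood at 51.2 and 19.5 CPM (1.39, 1.13 to 1.67), and ACTA1, skeletal alpha-actin, at 29.3 and 65.2 CPM (-1.15). At 3000 UMIs a cell, 7.1% of members (5.8% to 8.6%) and 5.1% of comparison CMs (3.4% to 7.4%) held a TNNI3 UMI, intervals that overlap. None of 308 AFP-high cells did at this depth, which allows a share of up to 0.974% by the limit of 3 counts, and 9 of 308 (2.92%) did unthinned. The share of cells with a TNNI3 UMI thus placed the pools closer together than the pooled level did.

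Chamber and conduction genes did not sort the members into 1 chamber. MYL2, the ventricular light chain, had a median of 0.813 UMIs per 10000 in members and 1.09 in the comparison, 90th percentiles of 10.2 and 20.02, and pooled levels of 435 and 622 CPM (-0.52). At 3000 UMIs a cell it was found in 33.4% of members and 37.1% of the comparison, HEY2 in 18.97% and 21.2%, and IRX4 in 22.9% and 26.3%. The AFP-high cells gave 6.5%, 0.6% and 1.3% for these ventricular genes. NR2F2 and HEY1, which the paper uses as atrial markers, were found in 2.47% and 2.55% of members. In the comparison they were found in 4.12% and 3.14%, and in AFP-high cells in 5.8% and 3.2%. All of these ventricular and atrial shares were thus lower in members, with exact intervals of the CM pools that overlapped for each gene. MYH7 was found in 42.6% and 42.4%, with 7.5% in the AFP-high cells, and NPPA in 18.0% and 17.1%, with 3.9%. NPPA, an atrial peptide, had pooled levels of 292 and 365 CPM (-0.32) and NPPB 90.05 and 112 CPM (-0.31). HCN4, the pacemaker channel, was found in 15.97% and 12.9%, with 0.3% in AFP-high cells, and stood at 61.2 and 41.8 CPM (0.55). The cardiac transcription factors had 3 of 4 genes above 0 and a summed ratio of 0.02, which turned to -0.01 under TMM scaling and to -0.02 under a median of ratios.

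Stress genes did not move as 1 group. Heat shock genes had 6 of 7 lower in members (median -0.16), with HSP90AB1 at 652 and 841 CPM (-0.37), HSPB1 at 3368 and 4083 CPM (-0.28) and the muscle form HSPB7 at 0.20. Of 8 oxidative stress genes 3 were higher, with SOD2, the mitochondrial superoxide dismutase, at 127 and 89.98 CPM (0.50) and PRDX1 at 425 and 568 CPM (-0.42). Among immediate early genes, which dissociation can induce, JUND was at 0.51 (103 and 72.3 CPM), EGR1 at 0.28, FOS at 0.18 and JUN at -0.14. All 4 measured genes of the cell death and p53 list were higher, with CDKN1A at 186 and 141 CPM (0.40) and MCL1 at 107 and 81.0 CPM (0.40). CDKN1A was found in 32.6% of members and 24.7% of the comparison at 3000 UMIs a cell, and in 33.8% of AFP-high cells.

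RNA kept in the nucleus was not raised together. NEAT1, the scaffold of paraspeckles, had a median of 26.0 UMIs per 10000 in members and 17.8 in the comparison (pooled 2978 and 2165 CPM, 0.46). MALAT1, the most abundant of the nuclear RNAs listed, was at 27364 and 29533 CPM (-0.11), and KCNQ1OT1 at -0.37. Cytosolic ribosomal protein genes were slightly lower, with 34 of 44 of the large subunit (summed -0.04) and 20 of 31 of the small subunit (-0.04) below 0 and none past 0.32 on the log2 scale. These small differences turned to 0.01 for both lists without the highest 5% of doublet scores.

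**Figure D3:**
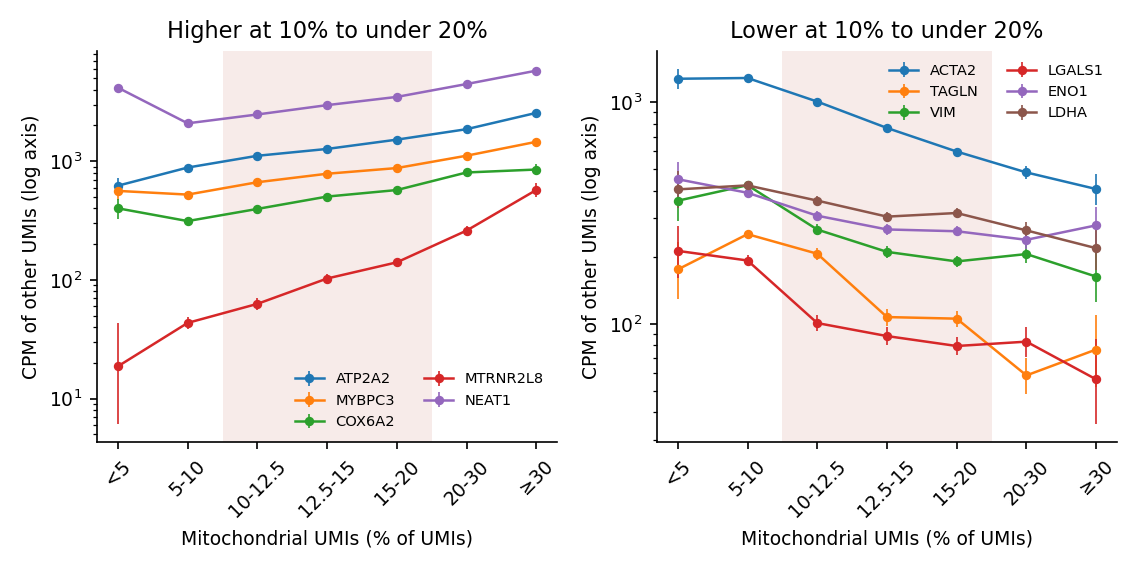
Level (CPM of non-mitochondrial UMIs, log axis) of genes with an excess (left) and a deficit (right) in MT-rich CMs against the mitochondrial share of UMIs in 7 ranges (x axis, %), with exact 95% intervals of counting error and the members' ranges shaded. The lowest range holds 26 cells and the highest 57. ATP2A2 went from 622 to 2552 CPM and ACTA2 from 1278 to 406 CPM.

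Levels moved with the mitochondrial share within the members as well as across their limits. ATP2A2 stood at 884 CPM in CMs at 5% to below 10%, at 1111, 1268 and 1519 CPM in the members' 3 ranges, and at 1860 and 2552 CPM in CMs at 20% to below 30% and at 30% or more. MYBPC3 had 523, 665, 784, 875, 1112 and 1456 CPM and COX6A2 313, 396, 503, 572, 803 and 851 CPM over the same 6 ranges. Each step was above the one before it for these genes. The 26 CMs below 5% broke the order for MYBPC3 (562 CPM) and COX6A2 (401 CPM), and for NEAT1, which had 4159 CPM there and 2084 CPM in the next range.

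Genes with a deficit moved the opposite way. ACTA2 had 1288, 1008, 766, 600, 483 and 406 CPM from 5% upward, and LDHA 422, 360, 305, 317, 264 and 220 CPM. VIM went from 423 CPM to 267 CPM between the range below and the first range of the members, and then stood between 163 and 211 CPM in the ranges above. Fibroblast markers had 571 CPM at 5% to below 10%, 408, 352 and 279 CPM in the members' ranges and 402 and 462 CPM above them. From 5% to below 20% they thus fell as ACTA2 did. They parted from ACTA2 and LDHA only in the ranges above, of 235 and 57 cells, which lie outside both pools. The summed complex IV level was 17673, 19559, 21271, 22355, 22778 and 24092 CPM, and that of calcium handling 5554, 5968, 6342, 7004, 7774 and 9453 CPM.

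Single members scattered widely around these pooled levels. Over the 1334 members, Spearman's rho with the mitochondrial share was 0.36 for the humanin-like genes, 0.19 for complex IV, 0.17 for calcium handling and 0.14 for complex III. It was -0.16 for the thin filament, -0.13 for large ribosomal proteins, -0.12 for glycolysis and -0.18 for the number of non-mitochondrial UMIs. These cells share 1 library, the values share the non-mitochondrial total, and the coefficients are given as a description without a test.

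At D14, a library that the choice of members did not use, the contrast was between 110 CMs at 10% to below 20% and 424 below 10%, with median mitochondrial shares of 11.8% and 5.96%, where those at D21 were 13.9% and 8.46%. Of the 1564 genes at 100 CPM, 23 were higher by 1.5-fold or more (1.47%) and 27 lower (1.73%). ATP2A2 had 636 and 397 CPM there (log2 ratio 0.68, 0.56 to 0.79), COX6A2 537 and 411 CPM (0.39), and MYBPC3 220 and 163 CPM (0.44), and MTRNR2L8 had a ratio of 0.86. RP1-46F2.2 had a ratio of -0.11 (-0.54 to 0.26), LAMB2 of 0.13 and MAN1C1 of 0.24, each with an interval that held 0. SYNPO2L was at 1.07, CAMK2D at 0.77, LDB3 at 0.69 and KCNH2 at 0.60 at D14, and RYR2 at 0.09.

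**Figure D4:**
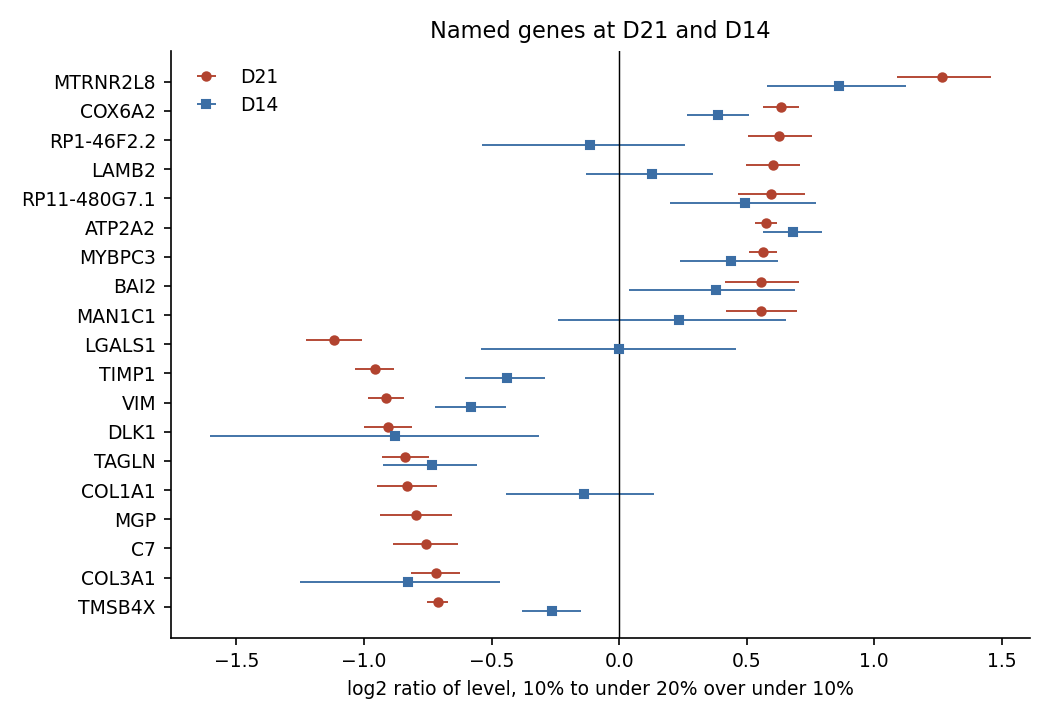
Log2 ratio of the level at 10% to below 20% over below 10% mitochondrial share for the genes named in the text for the largest differences each way at D21 (circles), with the D14 value (squares) where both D14 pools held at least 10 UMIs. Bars are exact 95% intervals of counting error. ATP2A2 was at 0.58 and 0.68 and VIM at -0.91 and -0.58, whereas LGALS1 was at -1.12 and 0.00.

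Glycolysis genes lay further from 0 in the D14 contrast, a difference between the days that could not be tested. ENO1 had 2903 and 4746 CPM (-0.71) and LDHA 1727 and 2566 CPM (-0.57), and 10 of 17 measured glycolysis genes were lower by 0.32 or more, where 10.6% of all genes were lower and 8.76% higher by that much. At D21 the ENO1 level in either pool lay far below that of D14. Complex IV had a summed ratio of 0.22 at D14, complex III of 0.18, calcium handling of 0.32, the Z-disc of 0.34 and the intercalated disc of 0.23. The pools behind these ratios were not matched in the gate genes, as given above. NEAT1 was at 0.00, against 0.46 at D21. Of the genes with a deficit, VIM (-0.58), TAGLN (-0.73), ACTA2 (-0.56) and COL3A1 (-0.83) were also lower in the D14 range, and LGALS1 (0.00) was not. Epicardial markers summed to 271 CPM in the D14 range and 529 CPM below it (-0.96), and their part in these differences was not tested. At 3000 UMIs a cell TAGLN was found in 30.9% of the D14 CMs at 10% to below 20% and in 28.3% of those below 10%, the opposite order to the pooled level.

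The AFP-high non-myocytes of D21 are set beside the CMs with their own values. Of 1141 genes at 100 CPM, 7 were higher (0.613%) and 27 lower (2.37%) by 1.5-fold or more, and 63 (5.52%) and 172 (15.1%) by 0.32 or more on the log2 scale. Summed complex IV had a log2 ratio of 0.03, complex I of -0.12, complex III of -0.03 and complex V of -0.06. Glycolysis was at -0.10, with ENO1 at -0.49 and LDHA at -0.30. COX6A2 was near absent there at 16.2 and 14.0 CPM (0.22, -0.44 to 0.83). VIM (-1.12), TMSB4X (-0.67), MTRNR2L8 (0.62) and MFN2 (0.72, a picked gene below the level filter in the CMs) differed in the same sense as in the CMs. Pooled levels of the muscle transcripts TTN (0.89), MYH6 (0.52) and ATP2A2 (0.42), low in these cells, were higher at 10% to below 20%. Medians per 10000 UMIs lay closer, at 1.55 and 1.31 (TTN), 3.08 and 2.74 (MYH6) and 1.08 and 0.888 (ATP2A2). The 90th percentiles of TTN were 6.86 and 3.42, which placed much of its pooled difference in a minority of cells. The source of these RNAs was not tested.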

How the data were processed

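The deposited table held raw UMI counts for 32738 genes in 17327 barcodes, with the library of each barcode in its name. The labels' processing notes name Cell Ranger (version not given in the sources used here), the hg19 build and Seurat 3.2.1, and the deposited counts still hold barcodes outside the authors' filter. The study's filter, more than 2000 and fewer than 7500 genes and below 10% mitochondrial genes, leaves 1946 D21 barcodes and would drop all members described here. The members, lists and tests were chosen with earlier results of these data known.

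UMIs were summed over the cells of each pool (15379933 non-mitochondrial UMIs in members and 6823569 in comparison CMs) and divided by the pool's non-mitochondrial total. Log2 ratios had 1 count added to both pools. Intervals are exact 95% intervals (conditional binomial for ratios, Clopper-Pearson for shares) and cover counting error only. Genes at 100 CPM or more in either pool were described by folds of 1.5, and by a log2 difference of 0.32, with no test, since cells of 1 library are not replicates. The text names the 10 genes with the largest fold each way apart from gate and mitochondrial genes, the gate genes, the mitochondrial genes and genes of the lists, 7 of whose genes were not in the table. A few genes that this rule or a list includes are counted but not reported here by name. For shares of cells with a UMI, each cell was thinned to 3000 non-mitochondrial UMIs (seed 1), which left out no cell. Doublet scores came from Scrublet in scanpy 1.11.5, which called 2 of 3928 barcodes and so was not relied on, and doublets were not removed. TMM factors came from edgeR 4.0.16 in R 4.3.3. Other steps used Python 3.11.15, numpy 2.4.6 and scipy 1.17.1. On simulated data, with 200 of 1436 genes changed, 94.4% of intervals held the true ratio, and 100% of genes changed 2-fold passed 1.5-fold. The simulated pools held counting error only, without variation between cells, so this checks the calculation and not the spread of real cells. Sequences, coordinates, strands and transcript lengths came from GENCODE on GRCh38, a different build from that of the counts, and were matched by gene symbol.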

Additional observations from a re-analysis of the deposited data

Results flagged for a closer look

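A group of 641 D21 barcodes passed the 4-gene muscle gate at 10% to below 20% mitochondrial UMIs but had too few detected genes to be members. They are noted because the comparisons do not use them. They were 641 of the 5221 D21 barcodes below the gene range, against 32 of 820 at D14 and 7 of 878 at D8, and had a median of 920 UMIs and 536 genes. Pooled, they held ATP2A2 at 650 CPM, MYBPC3 at 528 CPM and COX6A2 at 359 CPM, with VIM at 488 CPM, LGALS1 at 220 CPM and MTRNR2L8 at 69.4 CPM.

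A further 292 D21 CMs passed every other limit with 20% or more mitochondrial UMIs (median 24.5%), against 14 at D14 and 0 at D8. They too lie outside the comparisons. Their levels are given in the report as the 2 highest ranges of the mitochondrial share.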

How the results depend on the processing

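Alternatives changed 1 choice at a time, and 3 of them (fibroblast markers below 0.05%, gate genes at 4% to below 6% of non-mitochondrial UMIs, and shared barcodes left out) were added after seeing the data. The values as reported were 1334 members, ratios of median mitochondrial and other UMIs of 1.61 and 0.887, and 6 genes higher and 14 lower by 1.5-fold. Members at 10% to below 15% were 834 cells with a mitochondrial ratio of 1.45 and 0 genes higher, while those at 15% to below 20% were 500 cells with a ratio of 1.897, 40 genes higher and 28 lower. A comparison pool below 5% held only 26 cells and gave a ratio of 7.22, turned the ratio of other UMIs to 1.1, and gave 99 genes higher and 212 lower. A gate of 3% gave 2 higher and 2 lower, a depth of 5000 to below 15000 gave 2 and 5, and limiting fibroblast markers gave 3 and 4. Leaving out the highest 5% of doublet scores gave 2 lower, and gate genes at 4% to below 6% kept 638 members with 4 lower. The number higher was 3 under a median of ratios, 12 without gate and ribosomal protein genes in the total, 3 with 10 CPM added and 10 in thinned cells. A filter at 10 CPM gave 187 higher and 93 lower, and no filter gave 1645 and 3007, which adds genes with few UMIs.

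The named genes counted next were picked for the largest fold each way in these same pools, with the gate gene MYH6 added. TMM and median of ratios scaling shift all genes alike by a small amount and could not reverse them. The tally is thus partly fixed in advance. Among 21 named genes past 0.32 on the log2 scale, 381 of 399 values kept their direction over 19 alternatives, and 18 did not. The muscle genes COX6A2 (0.28 to 0.85), ATP2A2 (0.44 to 1.06) and MYBPC3 (0.43 to 0.74) kept theirs, as did complex IV (0.20 to 0.49), calcium handling (0.15 to 0.34), glycolysis (-0.20 to -0.14), VIM (-1.13 to -0.46), TAGLN (-1.25 to -0.36), LGALS1 (-1.29 to -0.21) and TIMP1 (-1.12 to -0.24). The thin filament ranged from -0.31 to 0.05. With the depth limit, the fibroblast markers turned to 0.10, DLK1 to 0.064, COL1A1 to 0.15, COL3A1 to 0.062 and TMSB4X to 0.24. Without the highest doublet scores, the fibroblast markers turned to 0.47, DLK1 to 0.27, COL1A1 to 0.56, MGP to 0.20, C7 to 0.31, COL3A1 to 0.43 and TMSB4X to 0.50. With fibroblast markers limited, which by construction removes cells rich in the collagens, their own sum turned to 0.22, COL1A1 to 0.10, MGP to 0.14 and COL3A1 to 0.31. With gate genes at 4% to below 6%, the fibroblast markers turned to 0.14, DLK1 to 0.16, COL1A1 to 0.093 and COL3A1 to 0.058. There the hepatic endoderm markers turned from -0.31 to 0.17 and the endothelial markers from -0.29 to 0.32. Against the 26 CMs below 5%, RP1-46F2.2 turned to -0.15, MGP to 0.12 and the natriuretic peptides from -0.32 to 0.60. Other lists with smaller differences also turned under some settings and are not all given here. The cause of the other turns was not tested. No paired analysis was possible because each day is 1 library and no replicate numbers exist. The 26 cells below 5% and the 57 at 30% or more are small pools.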

Other observations

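Genes with long transcripts were more often higher in the MT-rich CMs. GENCODE transcript lengths were found for 1436 of the 1508 genes. The length was the median over a gene's protein-coding transcripts, or over all its transcripts where it had none of these. Such a median over annotated transcripts need not be the length of the transcript that CMs express. Among genes above the third quartile of length (1979 bases), 66.3% had a log2 ratio above 0, against 44.3%, 26.6% and 37.0% in the 3 quartiles of shorter genes, and the median log2 ratios from short to long were -0.02, -0.10, -0.08 and 0.10. Spearman's rho between length and log2 ratio was 0.19 across genes, which are not independent replicates, and 0.18 without the muscle and ribosomal protein lists. At D14 rho was 0.13, with 63.3% of the longest genes above 0, and in AFP-high non-myocytes -0.01, with 50.4%. By this measure RYR2 (15706 bases) and TTN (10552.5) are among the longest, whereas COX6A2 (440 bases) and LGALS1 (560) are short and lay at opposite ends of the contrast. Why length and ratio moved together was not tested.

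PPARGC1A, the coactivator known for driving the making of mitochondria, was found in 7.4% of members (6.07% to 8.96%) and 4.9% of comparison CMs (3.197% to 7.15%) at 3000 non-mitochondrial UMIs a cell, against 0.6% of AFP-high non-myocytes. The intervals overlap, and at D14 the shares were 9.09% at 10% to below 20% and 10.4% below 10%. Hepatic transcripts that CMs should lack were found at like shares in both pools. APOA1 was in 63.5% of members and 63.9% of comparison CMs (100% of AFP-high cells), and TTR in 8.3% and 7.6% (88.6%).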
